A study of Mus musculus with 8 samples.

Results

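The insulin-like growth factor (IGF) family was examined in whole lungs of Ezh2 mutant and control mouse embryos. Its 10 genes were taken by name: the ligands Igf1 and Igf2, the receptors Igf1r and Igf2r, and the binding proteins Igfbp2, Igfbp3, Igfbp4, Igfbp5, Igfbp6 and Igfbp7. All 10 were measured, each by 1 probe set that carries a single gene symbol, among 22180 genes in all.

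The mutants were 4 Shh-cre:Ezh2-flox/flox embryos and the controls 4 Shh-cre embryos, all at embryonic day 14.5 on a mixed C57BL/6 x 129S6 background, with 1 array per embryo. Ezh2 encodes the methyltransferase of the Polycomb repressive complex PRC2. The Cre gene is driven by Shh, which in the lung is active in the epithelium, so cells of the mesenchyme and vessels are not meant to lose Ezh2. Both groups carry Cre, which in this line sits in the Shh gene and disrupts that copy. The embryos came from 4 litters of 2 with a single genotype per litter, here numbered 3 (mutants 1 and 2), 4 (mutants 3 and 4), 1 (controls 1 and 2) and 2 (controls 3 and 4). By Xist and Y-linked genes, 1 of 4 mutants (mutant 3) and 2 of 4 controls (controls 1 and 2) were male, so that sex and litter coincide within the controls and cannot be told apart there. The targeted gene itself had log2 values of 11.75 to 11.80 in mutants and 11.83 to 11.93 in controls, a log2 change of −0.09 for which limma gave an adjusted p of 0.652. Values are log2 expression, so a difference of 1 is a doubling, and each probe set was compared with itself across embryos.

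IGF1 and IGF2 are small secreted proteins that act through the receptor tyrosine kinase IGF1R to promote growth and survival. IGF2R takes up IGF2 for breakdown, and the binding proteins hold IGFs in the extracellular space, where they prolong their life or keep them from the receptor. In the developing lung the ligands are made mainly by mesenchyme, and mice lacking the pathway have small, immature lungs. The title of the study's paper, as recalled and not checked here, names Igf1 as a gene repressed by Ezh2. The text of the paper was not used. Every value averages all cells of the lung, so fewer cells of a type and less RNA per cell cannot be told apart.

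None of the 10 genes passed the test of mutant against control, and Igf1 was at nearly the same level in both genotypes. Of the 10, 0 were called higher and 0 lower by limma at an adjusted p of 0.05, where 0.604% of all genes were called higher and 0.248% lower. At an unadjusted p under 0.05 by limma, 3 members had higher values in mutants, the binding proteins Igfbp2, Igfbp3 and Igfbp5, and 0 had lower values, against 5.61% and 4.26% of all genes. The log2 change was above 0 for 8 of the 10, against 52.9% of all genes. The median log2 change of the 10 was 0.10, against 0.01 over all genes, and the median size of the change without its sign was 0.11, against 0.06. The standard errors of the 10 changes ran from 0.05 to 0.16.

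**Figure D1:**
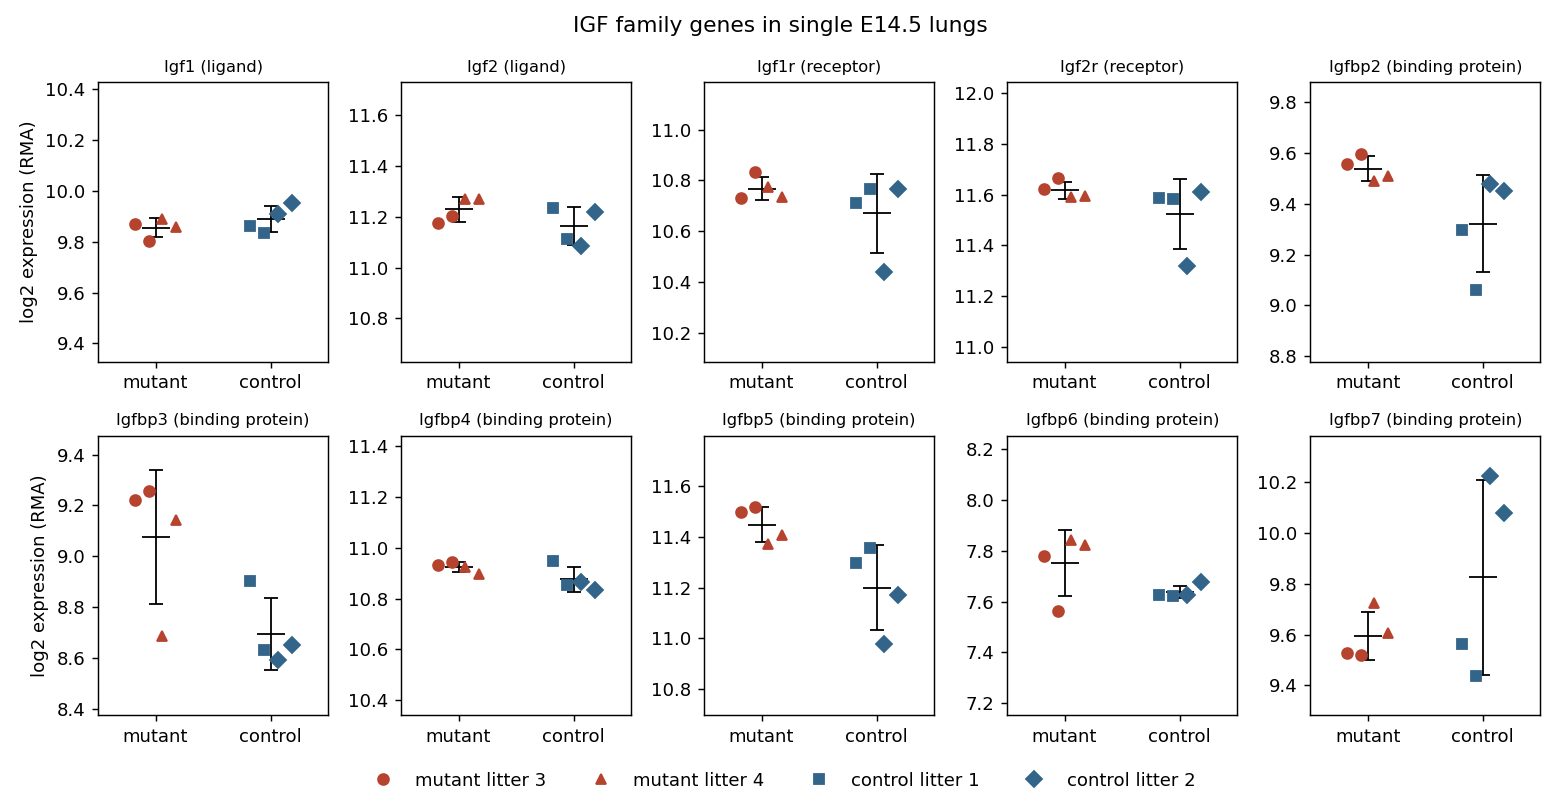
Log2 expression (vertical axes, each spanning the same number of log2 units) of the 10 genes in each embryo, mutants left and controls right, with litters by symbol and the mean and SD (n = 4 each) in black. Igf1 overlaps between the groups, the mutants of Igfbp2 and Igfbp5 lie just above all controls, and Igfbp7 is highest in the 2 controls of litter 2.

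Igf1 had log2 values of 9.87, 9.80, 9.89 and 9.86 in mutants 1 to 4, and 9.86, 9.84, 9.91 and 9.95 in controls 1 to 4. The groups overlapped: the mutants lay inside or just under the control range, and control 4 was the highest of the 8. The means were 9.86 ± 0.04 in mutants and 9.89 ± 0.05 in controls (SD, n = 4 each). This amounts to a log2 change of −0.03 ± 0.06 (SE), for which limma gave an adjusted p of 0.894. Its 95% interval ran from −0.16 to 0.09, which is 0.897 to 1.06 times the control level. The two-sided exact permutation test over the embryos gave p = 0.343, where 4 against 4 can give no less than 0.0286 and littermates are taken as independent. Among the embryos with high Xist (mutants 1, 2 and 4 against controls 3 and 4) the log2 change was −0.09. The single probe set does not tell the gene's transcripts apart, and a change limited to epithelial cells is averaged with the signal of all other cells.

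The RefSeq promoter window of Igf1 is shown because the title of the study's paper, as recalled, names this gene. Those of Igfbp3 and Igfbp5 are shown because these had the lowest unadjusted p of the 10 genes by limma. Each window holds 250 bases before and 50 after an annotated transcript start, on the gene's own strand in build GRCm38.p6, with CG dinucleotides in capitals. They lie at chr10:87860861-87861160 on the plus strand, chr11:7213874-7214173 on the minus strand and chr1:72874816-72875115 on the minus strand. Those of Igf1 and Igfbp3 belong to starts inside the span that the RefSeq gene table gives these genes, and which starts the lung uses was not measured.
Igf1: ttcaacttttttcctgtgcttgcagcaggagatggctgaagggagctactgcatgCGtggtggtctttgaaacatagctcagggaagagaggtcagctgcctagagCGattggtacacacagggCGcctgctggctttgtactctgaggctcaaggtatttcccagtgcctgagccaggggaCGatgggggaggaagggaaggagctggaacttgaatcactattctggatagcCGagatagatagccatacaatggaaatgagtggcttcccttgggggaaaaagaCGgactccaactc
Igfbp3: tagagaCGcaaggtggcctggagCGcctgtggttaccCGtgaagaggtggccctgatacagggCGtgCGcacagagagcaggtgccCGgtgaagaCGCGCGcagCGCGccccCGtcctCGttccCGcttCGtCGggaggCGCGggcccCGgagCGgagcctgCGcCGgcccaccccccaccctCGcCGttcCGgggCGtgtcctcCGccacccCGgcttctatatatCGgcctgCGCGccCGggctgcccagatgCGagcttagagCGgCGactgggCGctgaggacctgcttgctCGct
Igfbp5: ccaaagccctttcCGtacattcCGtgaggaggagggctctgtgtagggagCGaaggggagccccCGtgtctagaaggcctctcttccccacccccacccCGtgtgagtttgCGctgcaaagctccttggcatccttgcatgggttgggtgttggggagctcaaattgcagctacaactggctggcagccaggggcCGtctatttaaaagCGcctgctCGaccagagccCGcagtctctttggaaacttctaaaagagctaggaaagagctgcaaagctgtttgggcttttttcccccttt

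CG dinucleotides, which read the same on both strands, are dense in CpG islands, the kind of promoter at which PRC2 is known to act. The Igf1 window held 6, that of Igfbp3 held 37 and that of Igfbp5 held 10. The median over 32851 windows was 7, and 94.6% of them held at least 1. As many CG dinucleotides or more were found in 56.4% of all windows for Igf1, in 5.58% for Igfbp3 and in 43.5% for Igfbp5. Among the other members, the windows of Igf1r, Igf2r and Igfbp7 held 48, 34 and 33, that of Igfbp4 held 27 and that of Igfbp6 held 8. Igf2 has 4 windows in the table, with 2 to 24, and Igfbp2 has 2, with 14 and 18. Methylation and PRC2 binding were not measured, so these counts are a description of the sequence. The members with the densest windows, Igf1r, Igfbp3, Igf2r and Igfbp7, differed by 0.10, 0.38, 0.09 and −0.23 on the log2 scale, and none passed. A link between these counts and the changes was not tested.

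Igf2, the other ligand and in the mouse an imprinted gene expressed from the paternal copy, had log2 values of 11.18, 11.20, 11.27 and 11.27 in mutants 1 to 4, and 11.24, 11.11, 11.09 and 11.22 in controls 1 to 4. The groups overlapped, since control 1 and control 4 lay among the mutants. The log2 change was 0.07, with a 95% interval from −0.07 to 0.20 and an adjusted p of 0.799 by limma. The antisense gene Igf2os, which overlaps Igf2, did not pass either, at a log2 change of −0.03.

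Neither receptor passed, and 1 control embryo stood low for both. Igf1r, which carries the growth signal of both ligands, had log2 values of 10.73, 10.83, 10.78 and 10.74 in mutants 1 to 4, and 10.71, 10.77, 10.44 and 10.77 in controls 1 to 4. Igf2r, which removes IGF2 and also sorts lysosomal enzymes, had 11.62, 11.66, 11.59 and 11.59 in mutants 1 to 4, and 11.59, 11.58, 11.32 and 11.61 in controls 1 to 4. Control 3 was the lowest of the 8 embryos for both, and the other 3 controls lay close to or among the mutants. The log2 changes were 0.10 for Igf1r (95% interval −0.09 to 0.28) and 0.09 for Igf2r (−0.08 to 0.26), with adjusted p of 0.785 and 0.771 by limma. Without control 3 both changes were 0.02. Airn, the antisense RNA that silences the paternal copy of Igf2r in the mouse, did not pass, at a log2 change of 0.12.

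Igfbp2 and Igfbp5 were the 2 members whose groups did not overlap. This held in the higher direction for 4.48% of all genes, and for 0 members in the lower direction against 3.6% of all genes. Igfbp2, a binding protein common in fetal tissues, had log2 values of 9.56, 9.60, 9.49 and 9.51 in mutants 1 to 4, and 9.30, 9.06, 9.48 and 9.45 in controls 1 to 4. The lowest mutant and the highest control were 0.01 apart, and the controls of litter 1, both male, were the low ones. Between the groups the log2 change was 0.22 ± 0.09 (SE; 95% interval 0.02 to 0.42), with an unadjusted p of 0.0374 and an adjusted p of 0.465 by limma. It was 0.09 among the embryos with high Xist (mutants 1, 2 and 4 against controls 3 and 4), and 0.36 without litter 2. Without control 2, the lowest embryo, it was 0.13, with a 95% interval from −0.02 to 0.28. With litter means in place of single embryos, the interval of Igfbp2 ran from −0.02 to 0.45, at an unadjusted p of 0.0678 by limma. The intervals of Igfbp3 and Igfbp5 stayed above 0 in that fit.

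Igfbp5, which binds to extracellular matrix and is the most conserved of the binding proteins, had log2 values of 11.50, 11.52, 11.37 and 11.41 in mutants 1 to 4, and 11.30, 11.35, 10.98 and 11.17 in controls 1 to 4. Here the controls of litter 2 were the low ones, control 3 most of all, and the gap between the groups was 0.02. Mutants differed from controls by 0.25 ± 0.09 (SE; 95% interval 0.06 to 0.44), which is 1.19-fold, with an unadjusted p of 0.0147 and an adjusted p of 0.343 by limma. The log2 change was 0.40 among the embryos with high Xist. It was 0.12 without litter 2 (95% interval −0.03 to 0.28) and 0.19 without litter 3 (−0.05 to 0.43). Without litter 1 or litter 4 it was 0.37 and 0.31, with intervals above 0. Littermates were taken as independent in these. Igfbp2 and Igfbp5 are neighbours on chromosome 1, with no other protein-coding gene between them in the RefSeq table. Their log2 changes were alike in size, but different control litters were low: litter 2 minus litter 1 was 0.28 for Igfbp2 and −0.25 for Igfbp5 on the log2 scale.

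Igfbp3, the main carrier of IGFs in adult blood, had the largest log2 change of the 10 genes. Its log2 values were 9.22, 9.26, 8.69 and 9.14 in mutants 1 to 4, and 8.90, 8.63, 8.59 and 8.65 in controls 1 to 4. Mutants 1, 2 and 4 lay above all controls, whereas mutant 3, the male one, lay within the control range. The means were 9.08 ± 0.26 in mutants and 8.69 ± 0.14 in controls (SD, n = 4 each). This is a log2 change of 0.38 ± 0.13 (SE; 95% interval 0.09 to 0.67), or 1.30-fold, with an unadjusted p of 0.0141 and an adjusted p of 0.338 by limma. Without mutant 3 it was 0.51 and passed, at an adjusted p of 0.0218 by limma. It also passed among the embryos with high Xist, at 0.59 with an adjusted p of 0.0119 by limma, where littermates were taken as independent. Both settings leave out mutant 3. Without litter 3 (mutants 1 and 2) the log2 change was 0.22 (95% interval −0.08 to 0.52), with an adjusted p of 0.433 by limma, and without litter 2 it was 0.31, with an interval that included 0. Igfbp1, the neighbour of Igfbp3 on chromosome 11, did not pass, at a log2 change of 0.17.

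Igfbp7, which binds IGFs weakly and is known from vessel walls, had the lowest log2 change and the widest spread among controls. Its log2 values were 9.53, 9.52, 9.72 and 9.61 in mutants 1 to 4, and 9.56, 9.44, 10.23 and 10.08 in controls 1 to 4. The controls of litter 2 stood above all other embryos, and those of litter 1 lay at the level of the mutants. The means were 9.59 ± 0.09 in mutants and 9.83 ± 0.38 in controls (SD, n = 4 each). A log2 change of −0.23 ± 0.16 (SE; 95% interval −0.58 to 0.11) had an adjusted p of 0.703 by limma. Set against litter 2 alone it was −0.56 and passed, at an adjusted p of 0.0225 by limma, and set against litter 1 alone it was 0.09, at an adjusted p of 0.776 by limma, both with littermates taken as independent. Within controls, litter 2 exceeded litter 1 by 0.65, which is more than the difference between the genotypes. The mean log2 level of 12 endothelial markers was 10.17 to 10.23 in mutants, 10.06 in both controls of litter 1, and 10.15 and 10.20 in controls 3 and 4, and 0 of 12 passed. Its part in the Igfbp7 values was not tested.

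Igfbp4 and Igfbp6 did not pass either. Igfbp4, a substrate of the protease PAPP-A, had log2 values of 10.90 to 10.94 in mutants and 10.83 to 10.95 in controls, and the mutants lay within the control range. Its log2 change was 0.05 (95% interval −0.07 to 0.17), with an adjusted p of 0.836 by limma. Igfbp6, which prefers IGF2 to IGF1, had log2 values of 7.78, 7.56, 7.84 and 7.82 in mutants 1 to 4, and 7.63, 7.62, 7.63 and 7.68 in controls 1 to 4. Mutants 1, 3 and 4 lay above all controls and mutant 2 below them. The log2 change was 0.11 (95% interval −0.05 to 0.27), with an adjusted p of 0.681 by limma.

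**Figure D2:**
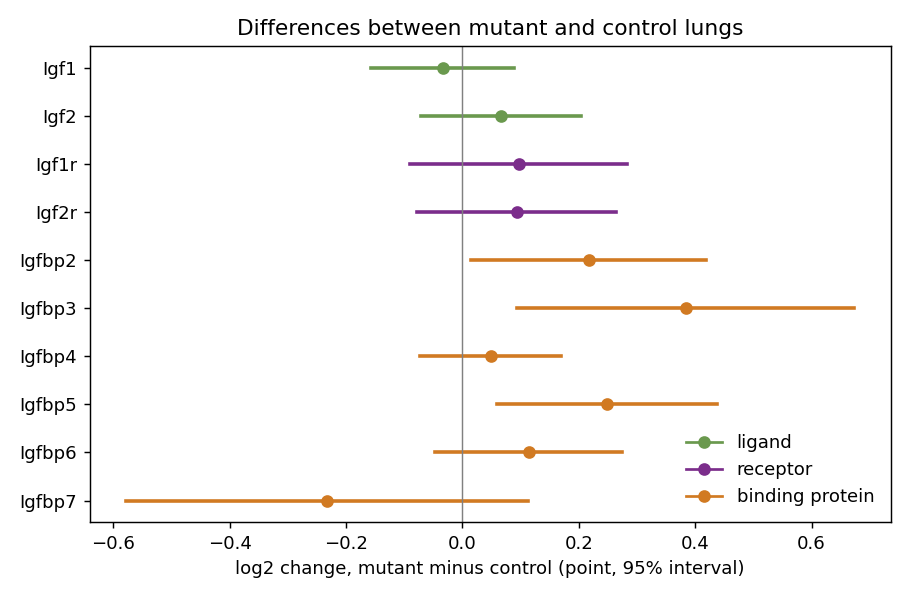
Log2 change of mutant minus control (horizontal axis) for each of the 10 genes, as a point with its 95% interval from limma. The intervals of Igfbp2, Igfbp3 and Igfbp5 lie above 0 before adjustment for the 22180 genes tested, those of the other 7 include 0, and that of Igf1 reaches 0.09 at its upper end.

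**Figure D3:**
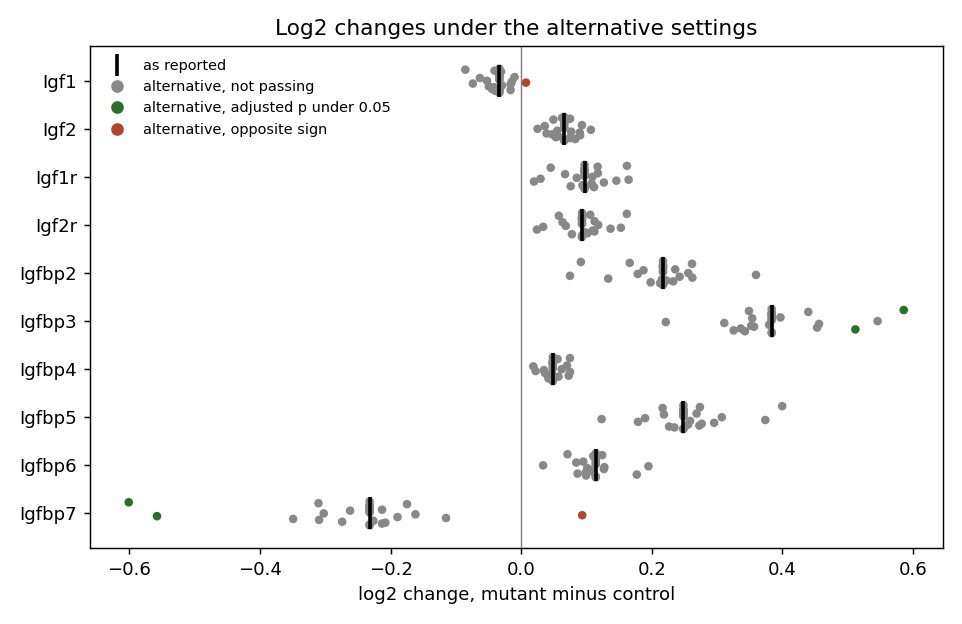
Log2 change of mutant minus control (horizontal axis) of each gene as reported (black bar) and under each of 27 alternative settings (points). Settings that alter only the block, probe set choice, variance model, genes tested or threshold cannot move a point. Igf1 stays between −0.09 and 0.01, while Igfbp3 and Igfbp7 pass in 2 settings each and Igfbp7 turns to the opposite sign without litter 2.

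Across embryos, the 10 genes were not all high or low together, but Igf1r, Igf2r, Igfbp3 and Igfbp5 shared their lowest and their highest embryo. Control 3 was the lowest of the 8 embryos for 5 members, Igf2, Igf1r, Igf2r, Igfbp3 and Igfbp5, and the highest for Igfbp7. Mutant 2 was the highest for 5, Igf1r, Igf2r, Igfbp2, Igfbp3 and Igfbp5, and the lowest for Igf1 and Igfbp6. Averaged over the 10 genes, the deviation from the mean of all embryos without its sign was 0.20 in control 3, the most of any embryo, and 0.05 in control 1, the least. Mutant 1 and mutant 4 were neither highest nor lowest for any member.

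**Figure D4:**
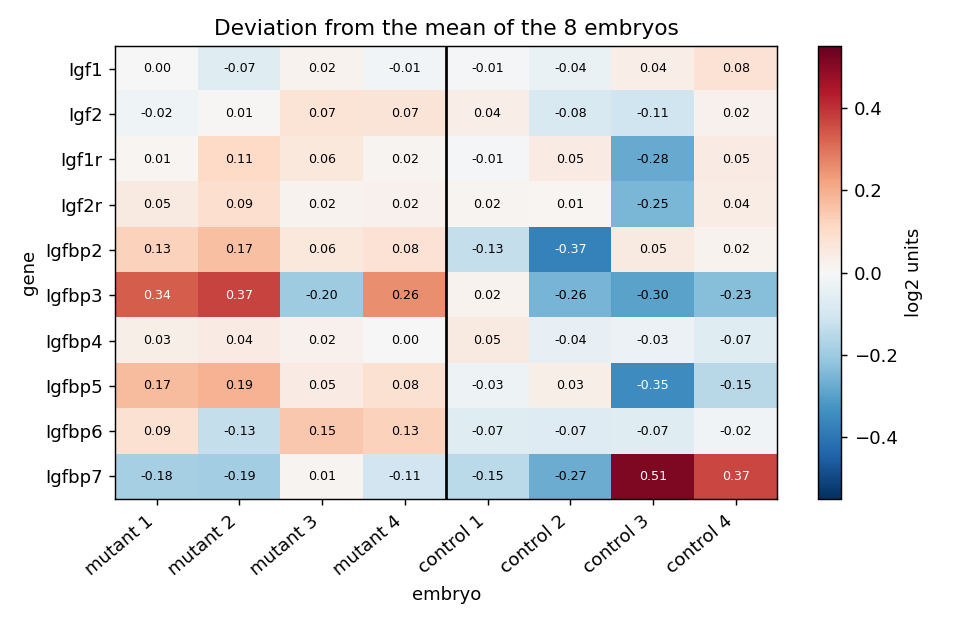
Deviation of each embryo (columns, mutants left of the line) from the mean of the 8 embryos for each gene (rows), in log2 units. Control 3 is low in the receptors, Igfbp3 and Igfbp5 and high in Igfbp7, and mutants 1, 2 and 4 are high in Igfbp3.

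Marker levels of cell types that a dissected lung holds were read from the same 8 arrays. The mean log2 level of 15 mesenchyme markers was 10.88 to 10.91 in mutants and 10.81 to 10.87 in controls, and 0 of 15 passed. That of 8 smooth muscle markers was 9.85 to 10 in mutants and 10.06 to 10.21 in controls, and 1 of 8 passed, the calponin gene Cnn1, which fell by 0.46 (log2). That of 8 mesothelial markers was 8.25 to 8.34 in mutants and 8.09 to 8.21 in controls, and 1 of 8 passed, the uroplakin gene Upk1b, which rose by 0.46 (log2). In these 3 lists the mean levels of the groups did not overlap, while the median log2 changes were 0.08, −0.09 and 0.05 in the same order. By the mesenchyme markers the groups were barely apart, at 10.87 in the highest control and 10.88 in the lowest mutant. Of these 15 markers, 10 had changes above 0 and 5 below, and all 8 smooth muscle markers had changes below 0. Of the 8 mesothelial markers, 6 had changes above 0 and 2 below. The largest, 0.50, was that of Krt19, which is also among the epithelial markers. The 15 epithelial markers had means of 9.84 to 9.92 in mutants and 9.87 to 10.07 in controls, highest in both controls of litter 2, and 1 of 15 passed, the transcription factor gene Foxa1, which fell by 0.56 (log2). For 9 liver markers the means were 6.43 to 6.60 in mutants and 6.48 to 6.54 in controls. For 10 heart muscle markers they were 7.85 to 7.97 in mutants and 7.75 to 7.92 in controls, and for 7 blood cell markers 8.06 to 8.36 in mutants and 8.03 to 8.19 in controls. None of the genes in these last 3 lists passed. The part of cell make-up in the values of Igfbp2, Igfbp3 and Igfbp5 was not tested.

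Around the 10 genes, 86 of 99 other genes of the pathway in 6 lists were measured, and 1 of them rose and 0 fell, where 0.604% and 0.248% of all genes did. The lists were chosen with earlier results of these data known, so this is no independent comparison. Stc1, which encodes stanniocalcin-1, an inhibitor of the protease PAPP-A that releases IGFs from binding proteins, rose by 0.69 ± 0.12 (SE) on the log2 scale, and limma gave it an adjusted p of 0.0257. Its log2 values were 8.34, 8.72, 8.43 and 8.56 in mutants 1 to 4, and 7.68, 7.58, 8.06 and 7.97 in controls 1 to 4, so all mutants lay above all controls. The call was lost without mutant 4, control 1, control 2 or control 4, with adjusted p of 0.10, 0.0548, 0.0548 and 0.0804 by limma, while the log2 change stayed between 0.61 and 0.71 in these. It was also lost with litter means (adjusted p 0.073), without litter 1, litter 3 or litter 4 (0.0886, 0.067 and 0.13), among high-Xist embryos (0.0987) and with all probe sets tested (0.103), all by limma. The gene of PAPP-A itself, Pappa, and its relative Pappa2 did not pass, at log2 changes of 0.04 and 0.07. Stc2, from the same list as Stc1, changed in the opposite direction, by −0.13 on the log2 scale (95% interval −0.28 to 0.01). Its groups overlapped, and limma gave it an adjusted p of 0.572. Pappa, Pappa2 and Stc2 are named here after their values were seen.

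The other 10 measured genes of the list of IGFBP proteases and their inhibitors did not pass. Nor did any of the 8 measured in the list of insulin family and linked genes, which holds the antisense genes Igf2os and Airn. None passed among the 10 regulators of ligand production or the 27 genes of the receptor adaptors and the PI3K-AKT branch. The 15 genes of the RAS-MAPK branch and the 15 FOXO targets did not pass either. The median log2 changes of these 6 lists in the same order were 0.07, 0.03, 0.03, 0.02, 0.02 and 0.05. Over all 86 genes the median was 0.03, against 0.01 over all genes tested. In the protease list, 4 of 11 genes, Stc1 among them, were higher at an unadjusted p under 0.05 by limma and 0 lower, against 5.61% and 4.26% of all genes. Htra1 of that list, named after its values were seen, had a log2 change of 0.28 and an adjusted p of 0.243 by limma. Of each later list the 2 genes with the largest change are given. Plagl1, a transcription factor gene that is itself imprinted, had a log2 change of 0.20, and Stat5b, a mediator of growth hormone signalling, had −0.08. Grb14, an adaptor that dampens insulin receptor signalling, had −0.28, and Gab1, a docking protein of receptor kinases, had 0.18. Map2k1, a MAP kinase kinase, had −0.20, and Spry1, an inhibitor of RAS-MAPK signalling, had 0.12. Txnip, a thioredoxin-binding protein, had 0.26, and Klf15 had 0.24. None of these 8 passed. Expression of RNA was measured, and phosphorylation of the kinases was not.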

How the data were processed

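RNA of whole lungs from 8 embryos was hybridised to 1-colour Affymetrix arrays, 1 per embryo. The authors deposited a log2 value per probe set, made with RMA in oligo, per the submitters' processing notes, which name no version here. RMA equalises the arrays' distributions, which hides changes shared by most genes, and shrinks changes of dim genes. Array medians were 7.05 to 7.12, and the number of arrays limits the precision.

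A single gene symbol was annotated for 23521 of 41345 probe sets, 1814 had several and 16010 were not named. By gene number 23328 were found in RefSeq (GRCm38.p6), which updated 0 symbols. Each gene took its probe set with the highest mean.

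Genotype was fitted in limma 3.58.1 (R 4.3.3) over 22180 genes. Litter entered as a random block (correlation 0.153), because no litter held both genotypes. P-values were two-sided, adjusted by Benjamini-Hochberg over all genes, with a threshold of 0.05. The fit was also run on simulated data, and the outcome is not used here. Embryos are separate animals, and littermates share a dam. The text names all members, then each listed gene that passes, or else the 2 with the largest change in a pathway list. Members and lists were chosen with earlier results of these data known. Of 99 listed pathway genes 13 were not analysed here. Alternatives are given in the closing section. Plots were made in matplotlib 3.10.9.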

Additional observations from a re-analysis of the deposited data

Results flagged for a closer look

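A search was made in 64 sets of 4 values, each of a gene or marker mean in the embryos of 1 genotype. In 3 of them an embryo stood well apart from the other 3, and 3.2 are to be expected, since chance flags about 1 in 20. The sets come from the same 8 embryos, so they are not independent. Control 3 was lowest for Igf2r, at a log2 value of 11.32, against 11.58 to 11.61 in the other controls. Control 4 was highest for Igfbp6, at 7.68, against 7.62 to 7.63 in the other controls. Mutant 2 was lowest for the mean of the liver markers, at 6.43, against 6.57 to 6.60 in the other mutants.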

How the results depend on the processing

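All 10 log2 changes were recomputed under 27 alternatives. Some of these could not move a log2 change, since the groups were balanced and each member had 1 probe set. Those that altered only the block, probe set choice, variance model, genes tested or threshold could move the p alone. A kept sign is no result there. Igf2, Igf1r, Igf2r, Igfbp2, Igfbp4, Igfbp5 and Igfbp6 kept their sign and passed in none of the 27, with lowest adjusted p of 0.475, 0.394, 0.417, 0.108, 0.552, 0.0929 and 0.199 by limma. Igf1 lay between −0.09 and 0.01 in all, with adjusted p from 0.642 to 0.985, and turned to 0.00729 without litter 2, where Igfbp7 turned to 0.0934. Igfbp3 passed without mutant 3 (0.51) and among high-Xist embryos (0.59). Igfbp7 passed without litter 1 (−0.56) and among high-Xist embryos (−0.60). The count of members that rose was therefore 1 among high-Xist embryos and 0 to 1 with each embryo left out, and that of members that fell was 1 without litter 1 and 1 among high-Xist embryos. The cause was not tested. With each embryo left out the log2 change ran from 0.33 to 0.51 for Igfbp3, from 0.13 to 0.26 for Igfbp2, from 0.02 to 0.15 for Igf1r and from −0.35 to −0.12 for Igfbp7.

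Among other pathway genes, Stc1 passed in 17 of 27 alternatives, with log2 changes of 0.50 to 0.88 over all of them. The looser threshold of 0.1 is among the 17 and could not lose the call. Settings that altered only the block, probe set choice, variance model or genes tested left the log2 change of Stc1 as it was. The count that rose was 0 with litter means, with all probe sets tested, without litter 1, litter 3 or litter 4 and among high-Xist embryos, was 2 without litter 2 (with Htra1) and 2 with the Xist level as covariate (with Adam28), and 0 to 1 with each embryo left out. Both genes are named after their values were seen. Fits without a litter or limited to high-Xist embryos took littermates as independent.

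Mutants and controls share the replicate numbers 1 to 4, but the numbers pair no litters, and same-numbered embryos did not deviate together (correlations −0.27 to 0.03 over all genes). With the replicate number as a block, 0 members passed and 1 pathway gene rose. The log2 change of Igf1 was −0.03 again, which this block cannot alter, since each number holds 1 embryo of each genotype. The table gives no detection calls, so how far signal over background limits dim genes such as Igfbp6 is not known here.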
